A study of Homo sapiens with 12 samples.

Results

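KOPT-K1 is an established human T-cell acute lymphoblastic leukaemia line grown in RPMI medium, and it was cultured in 24-well plates with 20 µM of the peptide SAHM1 or with the equivalent amount of its vehicle DMSO. RNA was taken after 24 hours from 3 cultures per treatment, and each culture gave 1 genome-wide expression array, called DMSO 1, 2 and 3 and SAHM1 1, 2 and 3 here. The 6 KOPT-K1 arrays belong to a set of 12, the other 6 being HPB-ALL, another line of the same leukaemia, treated with the same dose for the same time. The members described are all 19775 genes that had at least 1 probe set with a single gene symbol. The model is 1 line, 1 dose and 1 time, and no control peptide was analysed here. The cultures belong to 1 experiment, so every p-value measures the spread between cultures handled together.

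KOPT-K1 cells carry an activated NOTCH1 receptor. When a NOTCH receptor is cleaved, its intracellular part enters the nucleus, binds the DNA-binding protein RBPJ and recruits a mastermind-like coactivator, which switches on target genes such as HES1, HES4, DTX1 and MYC. SAHM1 is a hydrocarbon-stapled helical peptide copied from the stretch of mastermind-like that lies across NOTCH and RBPJ, and it was designed to occupy that groove. A second programme is background to the amino acid gene lists described below. ATF4, a transcription factor translated when amino acids run short or when the endoplasmic reticulum is stressed, binds with C/EBP partners and raises the genes for amino acid import, amino acid synthesis and tRNA charging.

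Every deposited value is a ratio to the mean of the 3 DMSO arrays of the same line, used here as log2. A gene at 0 is at its DMSO mean, and a change is the mean of the 3 SAHM1 arrays minus the mean of the 3 DMSO arrays on that log2 scale, given ± limma's standard error (n = 3 in each group). The absolute signal is lost in such ratios, so the labelled cell type could not be checked by the level of its markers, and no level is compared between genes. A gene is said to have risen or fallen, or to be called, where limma's Benjamini-Hochberg adjusted p over all 19775 genes was under 0.05.

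In all, 3761 genes were called, which is 19.0% of the genes tested. Falls outnumbered rises: 2605 genes fell (13.2%) and 1156 rose (5.85%). The fall was also the larger movement in size, since 51 called genes were lower by at least 1 log2 unit and 7 were higher by as much. Most calls were small, with a median rise of 0.33, a median fall of -0.35 and 3104 of the 3761 under 0.5 in size. The median change over all genes was 2e-05, and the median standard error was 0.085. Probe sets with 1 symbol, taken singly, gave the same lean, with 6668 of 41097 called (16.2%), 4936 of them lower (12.0%) and 1732 higher (4.21%). The 13522 probe sets with several or no listed symbols leaned the other way, with 974 higher and 621 lower. Of the 10523 genes with several probe sets, 116 had called probe sets in both directions.

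The 3 SAHM1 cultures moved by similar amounts. Over the 1156 genes that rose, the median log2 ratio was 0.32, 0.31 and 0.31 in SAHM1 cultures 1, 2 and 3. Over the 2605 that fell it was -0.34, -0.38 and -0.34, and culture 2 was the lowest of the 3 in 45.8% of them. These medians describe genes chosen for their change. The SAHM1 and DMSO arrays did not overlap in 3670 of the 3761 called genes, nor in 35.1% of all genes (6937 of 19775).

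**Figure D1:**
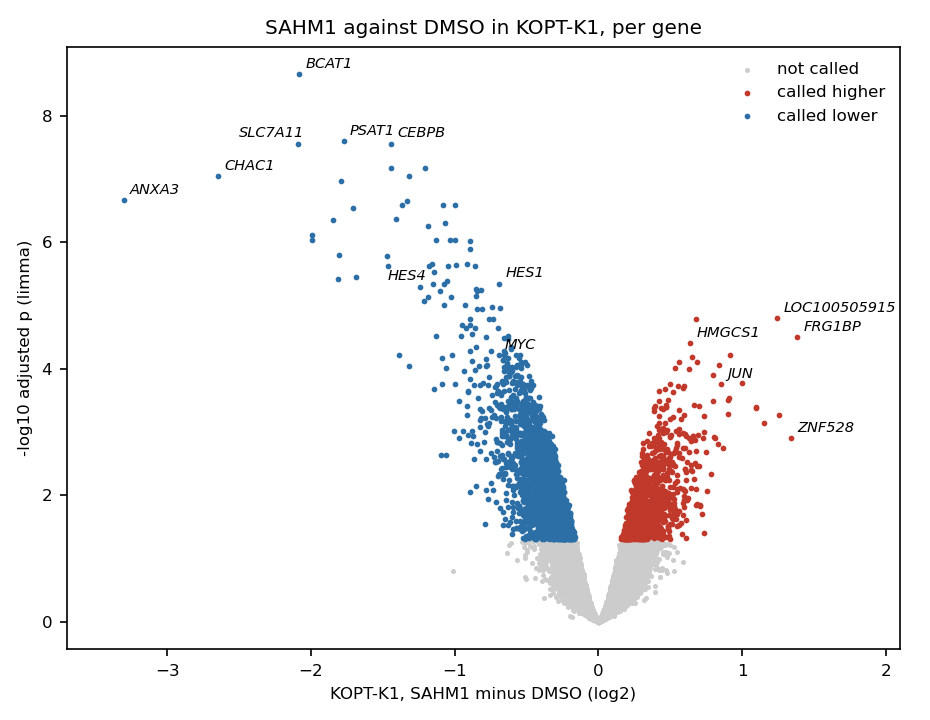
Each point is 1 of 19775 genes in KOPT-K1, with the log2 change with SAHM1 on the horizontal axis and the negative log10 of limma's adjusted p on the vertical axis. Called falls (2605, blue) reach -3.30 in ANXA3 and called rises (1156, red) reach 1.38 in FRG1BP, and grey points were not called.

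Some array controls lay apart between the treatments. The 18 hybridization spike probe sets, which report control transcripts added at hybridization and not cell RNA, averaged 0.60 to 1.05 in the SAHM1 arrays and -0.018 to 0.0086 in the DMSO arrays, a difference of 0.83 (exact two-sided permutation p = 0.1, the smallest that 3 against 3 arrays allow). Their part in the gene results was not tested beyond a fit with the spike level as a covariate. In that fit 709 genes were called, the median standard error rose to 0.119 and all 3761 calls kept their direction. Because the spike level nearly coincided with the treatment in KOPT-K1, a loss of calls was largely built into this fit. A call lost with the spike covariate therefore cannot tell a weak change from a loss of precision. The 5′ minus 3′ difference of the ACTB control, a sign of RNA quality, differed by -0.17 with SAHM1 (exact two-sided permutation p = 0.1), while that of GAPDH differed by 0.0089 (p = 0.8 in the same exact test). The part of the ACTB shift in the gene results was not tested. Of 329 called genes chosen for naming, some of them after their values were seen, 153 were called with the spike covariate too. Genes described here that were not called in that fit are named as such where their KOPT-K1 change is given. Without the probe-set classes marked _x_at and _s_at, which may read more than 1 transcript, 2498 genes were called. A test against a change of at least 1.2-fold called 261 genes, and quantile normalization of the ratios left 136. Of the 329 genes, 256 were called without each of the 6 arrays in turn, and 75 under every alternative in which they were measured.

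Amino acid genes of the ATF4 programme were frequent among the deepest falls, so promoter stretches that carry its known element are shown first. The element searched was TGATGNAA, the core of the C/EBP-ATF response element, on both strands of the window from 250 bases before to 50 bases after each gene start (RefSeq, GRCh38.p14). Of the 51 genes that were lower by at least 1, 43 had a window and 12 of those held the element, 27.9%, against 3.61% of the 15384 genes with a window. The share was 3.51% over all genes called lower and 3.64% over all called higher. Over 5 lists of amino acid response genes it was 16 of 52 members that fell (30.8%) and 4 of 38 members that were not called (10.5%). Genes of these lists had more windows each, 1.63 on average against 1.40 over all genes. Capitals mark the element or its reverse complement, and each stretch reads 5′ to 3′ on the strand of the gene:
CHAC1, chr15:40953222-40953309, + strand: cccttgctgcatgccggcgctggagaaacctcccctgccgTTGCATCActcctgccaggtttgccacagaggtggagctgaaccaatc
ASNS, chr7:97872429-97872516, - strand: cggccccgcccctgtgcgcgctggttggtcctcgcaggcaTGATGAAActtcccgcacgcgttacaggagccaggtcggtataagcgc
SLC3A2, chr11:62881696-62881748, + strand: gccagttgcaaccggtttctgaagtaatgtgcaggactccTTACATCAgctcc
GARS1, chr7:30594805-30594892, + strand: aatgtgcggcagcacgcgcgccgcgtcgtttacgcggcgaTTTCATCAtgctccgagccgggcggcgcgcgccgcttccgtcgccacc
IARS1, chr9:92293663-92293750, - strand: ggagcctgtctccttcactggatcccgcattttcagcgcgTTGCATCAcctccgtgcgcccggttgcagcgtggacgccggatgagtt
BCAT1, chr12:24949102-24949189, - strand: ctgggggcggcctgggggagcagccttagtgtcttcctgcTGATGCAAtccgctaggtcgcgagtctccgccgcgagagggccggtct
SLC1A5, chr19:46784864-46784951, - strand: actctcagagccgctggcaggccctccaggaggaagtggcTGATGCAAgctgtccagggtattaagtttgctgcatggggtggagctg

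The match lies 209 bases before the gene start in CHAC1, 68 in ASNS, 48 in BCAT1, 97 in SLC1A5, 33 in GARS1 and 13 in IARS1, and 37 bases after it in SLC3A2. A match is a description of the letters and not of binding. These 7 genes were picked by hand from the 12 that held the element among the 51 lower by at least 1. The others of the 12 were CTSG, ELMO1, IL7R, S100P and TMEM268. Like CHAC1, they stood in none of the 5 amino acid lists.

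Many amino acid response genes fell in KOPT-K1. The 5 lists held 109 measured genes, of which 59 fell and 1 rose, with a median change of -0.29. They supplied 19 of the 51 genes that were lower by at least 1. ATF4 itself was among the 59 that fell, and its protein and activity were not measured here. Among the transcription factors and kinases of the pathway, 9 of 15 members fell and none rose (median -0.36). CEBPB, a C/EBP partner of ATF4, read -0.016, 0.0055 and 0.011 in the DMSO arrays and -1.41, -1.53 and -1.39 in the SAHM1 arrays. The groups lay far apart, and the change was -1.44 ± 0.059 (limma adjusted p = 2.75e-08). DDIT3, the stress factor CHOP, changed by -0.99 ± 0.069, CEBPG, another C/EBP partner, by -0.81 ± 0.068, and ATF5, a relative of ATF4, by -0.85 ± 0.071, with 2 of the 4 ATF5 probe sets called.

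Import genes were among the falls. Of 24 amino acid transporters 13 fell and none rose (median -0.29). SLC7A11, the cystine-glutamate exchanger that feeds glutathione synthesis, read -0.056, 0.083 and -0.041 with DMSO and -2.08, -1.93 and -2.28 with SAHM1, a fall of 4.27-fold (-2.09 ± 0.086, limma adjusted p = 2.75e-08). All 3 of its probe sets were called, from -2.97 to -0.91. SLC3A2, the heavy chain that SLC7A11 and SLC7A5 need at the cell surface, read 0.010, -0.014 and 0.0035 with DMSO and -1.50, -1.68 and -1.95 with SAHM1 (-1.71 ± 0.095). SLC7A5, the leucine carrier, changed by -1.41 ± 0.081, SLC1A5, the glutamine carrier, by -1.13 ± 0.11, SLC7A3, a carrier of cationic amino acids, by -1.19 ± 0.071, and SLC43A1, another leucine carrier, by -1.15 ± 0.14.

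Synthesis enzymes followed the same direction. In the serine, glycine and folate list 8 of 19 members fell and none rose (median -0.16). PHGDH, which commits a glycolytic intermediate to serine, read 0.0017, 0.0046 and -0.0063 with DMSO and -1.02, -1.09 and -1.12 with SAHM1 (-1.08 ± 0.058). PSAT1, the next enzyme of that path, changed by -1.77 ± 0.068 (limma adjusted p = 2.53e-08). SHMT2 and MTHFD2, the mitochondrial enzymes that pass the one-carbon unit of serine to folate, changed by -0.997 ± 0.054 and -1.05 ± 0.079, and CBS, which joins homocysteine to serine, by -1.13 ± 0.071. All the SAHM1 readings of these 5 genes lay below their DMSO readings.

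Asparagine, proline, arginine and branched-chain enzymes counted 10 falls and 1 rise in 19 members (median -0.29). BCAT1, the cytosolic branched-chain transaminase, had the smallest p of all genes: it read 0.051, -0.0015 and -0.057 with DMSO and -1.99, -2.16 and -2.10 with SAHM1, a fall of 4.23-fold (-2.08 ± 0.062, limma adjusted p = 2.21e-09), and its 4 probe sets ran from -2.55 to -1.53. ASS1, which makes the precursor of arginine, changed by -1.69 ± 0.12 and PYCR1, the last step of proline synthesis, by -1.47 ± 0.099. ASNS, asparagine synthetase, averaged -1.33 ± 0.070 over 2 probe sets, of which 1 was called (-2.79) and the other was not (0.13). The first of these is of the _s_at class, and without that class the gene read 0.13. PRODH, which breaks proline down, rose by 0.35 ± 0.074 and lost its call with the spike covariate.

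The enzymes that load amino acids onto tRNA gave the largest count of these lists. Of 32 aminoacyl-tRNA synthetases 19 fell and none rose (median -0.29). IARS1, which charges isoleucine, read 0.044, -0.033 and -0.012 with DMSO and -1.15, -1.25 and -1.23 with SAHM1 (-1.21 ± 0.055). GARS1 for glycine changed by -1.32 ± 0.063, EPRS1 for glutamate and proline by -1.07 ± 0.081, SARS1 for serine by -1.03 ± 0.065 and CARS1 for cysteine by -0.99 ± 0.063. XPOT, which carries tRNA out of the nucleus and stood in no list, fell as well (-1.07 ± 0.063), with both of its probe sets called.

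**Figure D2:**
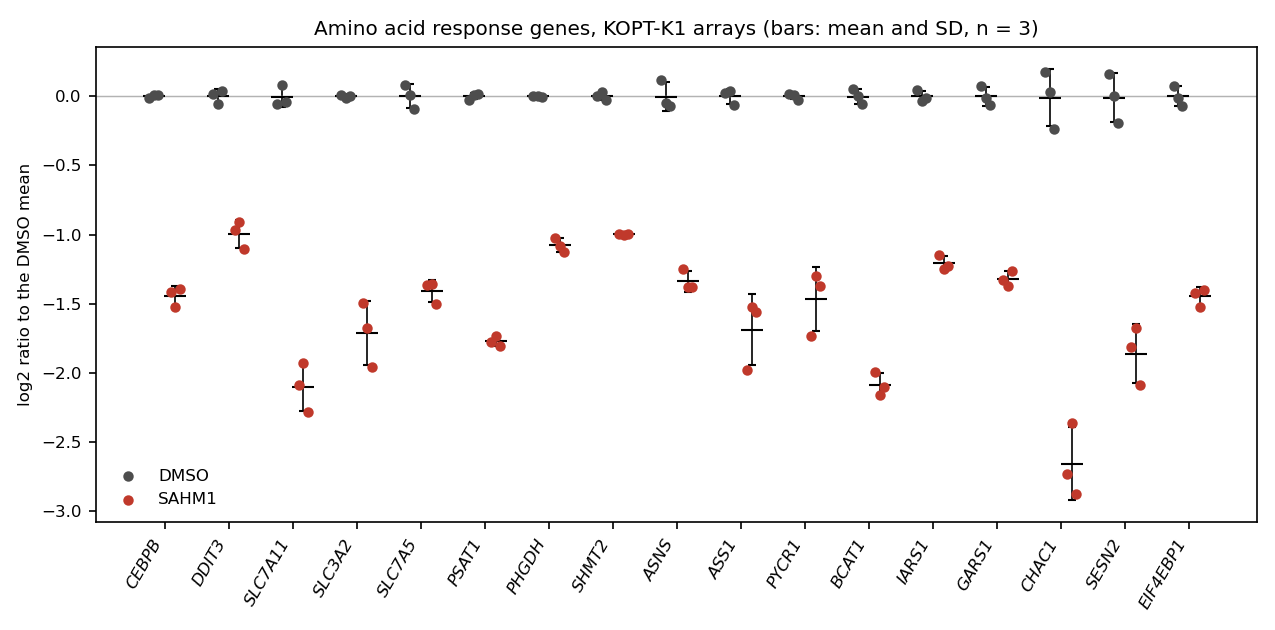
Log2 ratio to the DMSO mean (vertical axis) of 17 amino acid response genes on each KOPT-K1 array, with DMSO in grey, SAHM1 in red, and bars for the mean and SD of 3 arrays. The SAHM1 points of every gene shown lie below its DMSO points, with changes from -0.99 in DDIT3 to -2.65 in CHAC1.

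CHAC1, an enzyme that degrades glutathione and a standard readout of ATF4, had the second largest fall of all genes. It read 0.18, 0.032 and -0.24 in the DMSO arrays and -2.73, -2.36 and -2.88 in the SAHM1 arrays, 6.26-fold lower (-2.65 ± 0.13, limma adjusted p = 8.92e-08). Elsewhere in the glutathione and redox list the movement was thin, with 6 of 31 members lower and 2 higher (median -0.00096). TXNIP, an inhibitor of thioredoxin and of glucose uptake, changed by -0.50 ± 0.070 and GLRX, a glutaredoxin, rose by 0.43 ± 0.058. GCLM, the modifier subunit of the first enzyme of glutathione synthesis, changed by -0.39 ± 0.072 and lost its call with the spike covariate.

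Inhibitors of the growth kinase mTORC1 were called in both directions. Of 26 inhibitors and sensors 8 fell and 4 rose (median -0.13). SESN2, a leucine sensor that restrains mTORC1 and is an ATF4 target, read 0.16, -0.0020 and -0.19 with DMSO and -1.82, -1.67 and -2.09 with SAHM1 (-1.85 ± 0.11). EIF4EBP1, which holds back cap-dependent translation when mTORC1 is off, changed by -1.45 ± 0.066, DDIT4, an inhibitor of mTORC1 upstream of TSC, by -1.15 ± 0.087, and NPRL3, a subunit of the GATOR1 brake, by -0.54 ± 0.056. Among the rises were the mTOR-binding inhibitor DEPTOR (0.37 ± 0.093) and DDIT4L (0.34 ± 0.092), a relative of DDIT4. Both lost their calls with the spike covariate. With 1 array left out DEPTOR ran from 0.29 to 0.44 and was not called without DMSO 2 or SAHM1 2, and DDIT4L ran from 0.27 to 0.40 and was not called without DMSO 1, DMSO 2, SAHM1 2 or SAHM1 3. SESN1 (-0.33 ± 0.075) and, in the opposite direction, LAMTOR2, part of the Ragulator anchor (0.35 ± 0.072), passed the test and lost their calls with the spike covariate.

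In the unfolded protein response of the endoplasmic reticulum 10 of 30 members fell and 1 rose (median -0.082). EDEM1, which hands misfolded glycoproteins to degradation, moved most clearly (-0.74 ± 0.062). The sensors ERN1 and ATF6 changed by -0.34 ± 0.054 and -0.39 ± 0.069, EDEM3, a relative of EDEM1, by -0.37 ± 0.059, and ERO1A, the oxidase that drives disulphide bonds, by -0.43 ± 0.077. The rise was in DERL2, a channel component of the same degradation path (0.29 ± 0.066). With the spike covariate ERN1, ATF6, EDEM3, ERO1A and DERL2 were no longer called.

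Genes of glucose use and of the hypoxia response were among the falls too. Of 24 genes of glycolysis and glucose uptake 10 fell and none rose (median -0.18; calls 6 without DMSO 1, 6 without DMSO 3, 6 without SAHM1 3). HK2, the inducible hexokinase, read -0.0096, -0.019 and 0.017 with DMSO and -0.79, -0.95 and -0.94 with SAHM1 (-0.89 ± 0.080). SLC2A3, a high-affinity glucose transporter, changed by -0.57 ± 0.062 and PDK1, which keeps pyruvate out of mitochondria, by -0.59 ± 0.077. PFKFB3, which makes the activator of phosphofructokinase, changed by -0.61 ± 0.11 and lost its call with the spike covariate. The promoter letters ACGTG, the core of the hypoxia response element, were in 14 of the 22 genes of this list with a window (63.6%), against 28.8% of all genes and 35.9% of all genes called lower, searched on both strands. The longer letters CACGTG, which contain ACGTG, were in 6 of the 22 genes (27.3%). They were in 10.87% of all genes and 15.55% of all genes called lower. The glycolysis list averaged 2 windows per gene.

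Of 28 hypoxia-response genes outside glycolysis 13 fell and 1 rose (median -0.23; calls 9 without DMSO 1, 9 without DMSO 2, 8 without SAHM1 2), and ACGTG was in 13 of the 23 genes with a window (56.5%). The longer CACGTG was in 6 of these 23 genes (26.1%). VEGFA, the endothelial growth factor, read 0.11, -0.023 and -0.11 with DMSO and -0.98, -1.31 and -1.03 with SAHM1, and each of its 4 probe sets was called (-1.10 ± 0.086, limma adjusted p = 5.94e-06). BHLHE40, a repressor induced by low oxygen and tied to the circadian clock, changed by -1.02 ± 0.082. EPAS1, which encodes HIF-2 alpha, changed by -0.48 ± 0.072 as a mean and lost its call when the median of its 3 probe sets was used.

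Genes of mitochondrial respiration rose more often than they fell. Of 78 subunits of the respiratory chain and ATP synthase 13 rose and 3 fell (median 0.056; calls 8 without DMSO 2, 10 without DMSO 3, 10 without SAHM1 1, 10 without SAHM1 3). Among the rises were UQCRQ of complex III (0.45 ± 0.070) and COX7A2 of complex IV (0.34 ± 0.061). COX7B of complex IV fell (-0.26 ± 0.068) on 2 probe sets that read -0.65 and 0.13, of which 1 was called. It lost its call with the spike covariate, and without DMSO 3, SAHM1 1 or SAHM1 3, in a range of -0.32 to -0.22 with 1 array left out. COX6C (0.26 ± 0.055) and NDUFA1 (0.23 ± 0.051) rose and NDUFS1, the largest iron-sulphur subunit of complex I, fell (-0.39 ± 0.094), and these 3 lost their calls with the spike covariate. In the tricarboxylic acid cycle 4 of 23 members fell and none rose (1 without DMSO 1, 0 without DMSO 2, 2 without DMSO 3, 1 without SAHM1 1, 1 without SAHM1 2, 2 without SAHM1 3), and in the pentose phosphate path 1 of 12 fell and 1 rose (1 without DMSO 1, 0 without DMSO 2, 0 without DMSO 3, 1 without SAHM1 1, 1 without SAHM1 2, 1 without SAHM1 3), shares near those of all genes.

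NOTCH target genes mostly fell or were not called. Of 22 targets known in T-cell leukaemia 10 fell and 1 rose (median -0.18). HES4, a transcriptional repressor of the HES family, read 0.091, -0.018 and -0.079 with DMSO and -1.20, -1.14 and -1.39 with SAHM1, a fall of 2.37-fold (-1.24 ± 0.095, limma adjusted p = 5.02e-06). HES1, its relative and the best-known target, read 0.024, -0.034 and 0.0017 with DMSO and -0.68, -0.74 and -0.66 with SAHM1 (-0.69 ± 0.052). The mean hides a spread between the 3 HES1 probe sets, of which 2 were called and which ran from -1.09 to -0.044, and HES1 lost its call without the _x_at and _s_at classes. HES4 and MYC had no probe set outside these classes, so their calls were not tested in that setting. DTX1, a ubiquitin ligase that modulates NOTCH, changed by -0.86 ± 0.094, and MYC, the growth regulator, by -0.69 ± 0.070, with SAHM1 readings of -0.69, -0.74 and -0.65 against 0.020, -0.016 and -0.0041 with DMSO.

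The windows of HES4 and HES1 hold the letters TGGGAA, the core of the RBPJ site, once in HES4 76 bases before the gene start and a pair of times in HES1 at 84 and 70 bases before it (RefSeq, GRCh38.p14, capitals mark the core):
HES4, chr1:1000128-1000213, - strand: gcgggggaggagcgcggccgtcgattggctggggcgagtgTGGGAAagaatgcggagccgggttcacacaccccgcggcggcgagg
HES1, chr3:194136024-194136123, + strand: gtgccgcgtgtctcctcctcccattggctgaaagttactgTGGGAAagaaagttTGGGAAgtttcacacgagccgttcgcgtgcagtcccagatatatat

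Over the target list 8 of 19 genes with a window held TGGGAA (42.1%), against 28.2% of all genes with a window, both strands searched. The 8 were HES1, HES4, HES5, HEY2, HEYL, SKP2, GIMAP5 and CD3D. The share was 28.2% over all genes called lower and 25.6% over those lower by at least 1, near that of all genes.

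Other targets that fell were the interleukin-7 receptor IL7R and the small GTPase RHOU. IL7R read 0.017, 0.066 and -0.099 with DMSO and -1.43, -0.96 and -0.88 with SAHM1 (-1.08 ± 0.13), and RHOU changed by -0.82 ± 0.11. IGF1R, the insulin-like growth factor receptor, changed by -0.62 ± 0.098, with 3 of 5 probe sets called, and lost its call with the spike covariate. HEY1, a repressor related to HES1, was the single rise at 0.36 ± 0.10 (limma adjusted p = 0.0284). Its SAHM1 arrays read 0.33, 0.34 and 0.36 against 0.28, -0.17 and -0.16 with DMSO, so 1 DMSO culture lay close to the SAHM1 cultures. HEY1 lost its call with the spike covariate, without the _x_at and _s_at classes (0.14), and without DMSO 2 (0.28), DMSO 3 (0.29), SAHM1 1 (0.37), SAHM1 2 (0.36) or SAHM1 3 (0.35).

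Several core genes gave no call. NRARP, a feedback inhibitor and usual target, differed by -0.036 ± 0.11 (limma adjusted p = 0.856), and its SAHM1 readings of -0.12, 0.13 and -0.15 overlapped the DMSO readings of -0.26, 0.079 and 0.15. NOTCH1 itself differed by 0.063 ± 0.16, NOTCH3 by -0.20 ± 0.081, RBPJ by -0.22 ± 0.073, MAML1, the mastermind-like protein from which the peptide sequence was taken, by 0.063 ± 0.064, and PTCRA, the pre-T-cell receptor chain, by 0.12 ± 0.084, none of them called. The intervals of NRARP and NOTCH1 are wide, with standard errors above the median of 0.085. Among receptors, ligands and complex members as a whole 2 of 23 fell and 2 rose (median -0.044; calls 2 without DMSO 2, 2 without SAHM1 3). SPEN, a corepressor of RBPJ, changed by -0.51 ± 0.085 and NOTCH4 rose by 0.33 ± 0.074, and both lost their calls with the spike covariate. Processing enzymes counted 7 falls in 25 and no rise, among them the receptor-cleaving proteases ADAM17 (-0.39 ± 0.059) and ADAM10 (-0.38 ± 0.064) and the ubiquitin ligase ITCH (-0.58 ± 0.12). ADAM10 and ITCH were not called with the spike covariate.

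**Figure D3:**
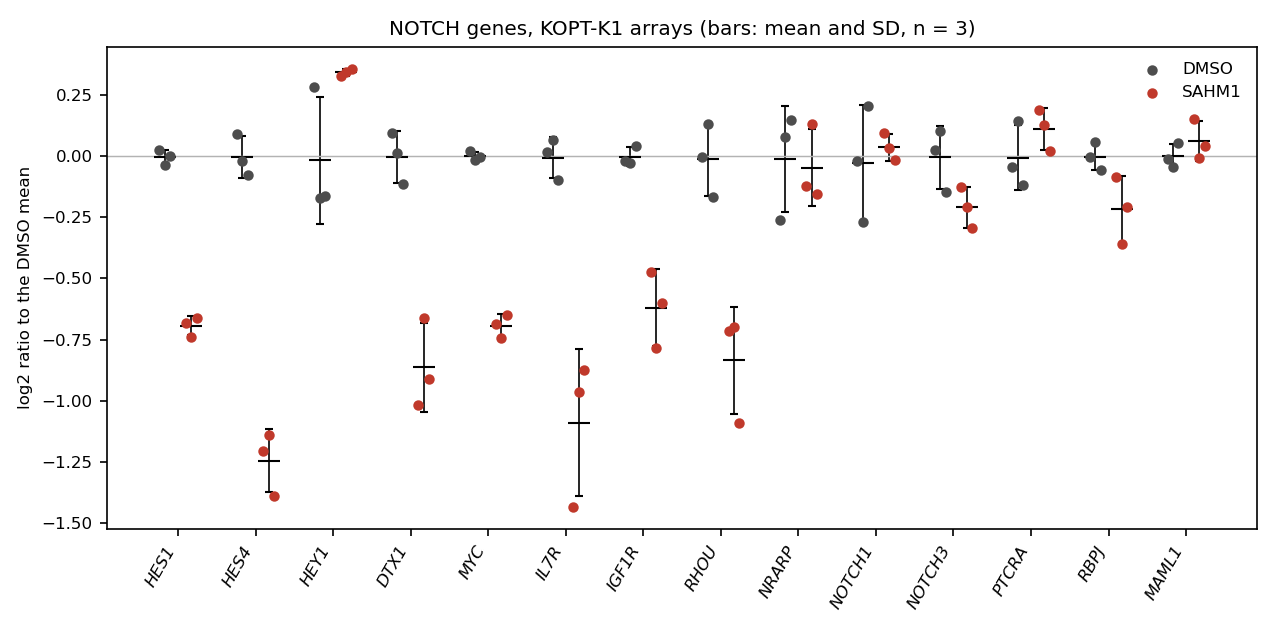
Log2 ratio to the DMSO mean (vertical axis) of 14 NOTCH genes on each KOPT-K1 array, with DMSO in grey, SAHM1 in red, and bars for the mean and SD of 3 arrays. HES1, HES4, DTX1, MYC, IL7R, IGF1R and RHOU separate downwards, while the points of NRARP, NOTCH1, PTCRA and MAML1 overlap.

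Growth genes tied to MYC were among the falls. In the MYC network 8 of 17 members fell and 1 rose (median -0.082). MNT, a repressor that competes for the MYC partner MAX, changed by -0.34 ± 0.056. MXD3, a related competitor, rose by 0.35 ± 0.077 and MYCBP2, a large ligase, changed by -0.31 ± 0.064, and both lost their calls with the spike covariate. Of 38 ribosome biogenesis genes 17 fell and none rose (median -0.21). DDX21, a nucleolar helicase, read 0.023, -0.0038 and -0.022 with DMSO and -0.47, -0.48 and -0.54 with SAHM1 (-0.50 ± 0.053). WDR43, NOC3L and BYSL, which take part in processing the pre-ribosome, changed by -0.68 ± 0.089, -0.53 ± 0.083 and -0.48 ± 0.064, and SRM, the spermidine synthase, by -0.39 ± 0.091.

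Polymerase genes for stable RNA moved likewise, with 15 of 28 members of RNA polymerase I and III lower and 1 higher (median -0.22; calls 10 without DMSO 1). POLR3C, a subunit of polymerase III, changed by -0.85 ± 0.066. The polymerase I factors TAF1D (-0.54 ± 0.093), TAF1B (-0.47 ± 0.10) and RRN3 (-0.43 ± 0.088) fell and lost their calls with the spike covariate. Ribosomal proteins themselves went both ways. Of 60 cytosolic ribosomal proteins 7 rose and 5 fell (median 0.0037; calls 6 without DMSO 1, 7 without DMSO 2, 7 without SAHM1 2). Of 75 mitochondrial ones 11 rose and 10 fell (median -0.016; calls 11 without DMSO 1, 10 without DMSO 2, 13 without DMSO 3, 10 without SAHM1 1). MRPL40 (-0.60 ± 0.070), MRPS30 (-0.49 ± 0.072) and MRPS9 (-0.41 ± 0.055) fell. MRPL54 (0.39 ± 0.061) and MRPL51 (0.30 ± 0.052) rose and lost their calls with the spike covariate, as did RPL38 (0.57 ± 0.12) and RPS24 (-0.45 ± 0.079) of the cytosolic ribosome. Many cytosolic ribosomal protein genes have near-identical copies, so their probe sets can report more than 1 locus.

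Of 56 translation factors 21 fell and 2 rose (median -0.14). EIF2S2, the beta subunit of the factor that brings the initiator tRNA, read 0.052, 0.0019 and -0.056 with DMSO and -0.86, -0.91 and -0.91 with SAHM1 (-0.89 ± 0.057). EIF2S1, the alpha subunit that stress kinases phosphorylate, changed by -0.41 ± 0.056 and EIF3A, the scaffold of the next complex, by -0.39 ± 0.055. Of 27 genes of purine and pyrimidine synthesis 11 fell and 2 rose (median -0.14). PFAS and ATIC, enzymes of the purine path, changed by -0.83 ± 0.089 and -0.56 ± 0.063, and CTPS1, which makes CTP, by -0.43 ± 0.065. PPAT, the committed purine step, changed by -0.45 ± 0.067 and lost its call without the _x_at and _s_at classes. Polyamine genes counted 4 falls in 15 and no rise (2 without DMSO 3, 2 without SAHM1 2, 2 without SAHM1 3).

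Replication and mitosis genes went separate ways. Of 47 DNA replication genes 20 fell and 2 rose (median -0.17; calls 13 without DMSO 1, 14 without DMSO 2, 12 without SAHM1 2). CDC6, which loads the helicase at origins, read -0.059, 0.012 and 0.044 with DMSO and -0.40, -0.51 and -0.53 with SAHM1 (-0.48 ± 0.058). MCM2, a helicase subunit, changed by -0.45 ± 0.062, MCM10, which activates it, by -0.32 ± 0.051, and ORC3 of the origin recognition complex by -0.50 ± 0.075. ORC6 of the same complex rose by 0.32 ± 0.062 and lost its call with the spike covariate. Of 43 mitosis genes 8 rose and 1 fell (median 0.030). CCNB1, the mitotic cyclin, read 0.012, 0.017 and -0.030 with DMSO and 0.30, 0.28 and 0.34 with SAHM1 (0.31 ± 0.058), and SPC25 of the kinetochore changed by 0.37 ± 0.065. CENPA, the centromeric histone (0.33 ± 0.060), and CCNA2 (0.30 ± 0.059) rose while the kinetochore scaffold KNL1 fell (-0.38 ± 0.087), and these 3 were not called with the spike covariate.

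Other cell cycle lists moved little. G1 cyclins, kinases and inhibitors counted 4 falls and 1 rise in 29 members (median -0.055; calls 2 without DMSO 2, 2 without DMSO 3, 2 without SAHM1 2, 3 without SAHM1 3), near the share of all genes. Kinesins counted 5 falls and 2 rises in 41 members (calls 4 without DMSO 3, 4 without SAHM1 1), led by KIF21A (-0.90 ± 0.14) and KIF21B (-0.77 ± 0.11). Histone genes counted 7 falls and 5 rises in 58 members (median -0.073), with H3C7 at -0.94 ± 0.14 and H2BC9 at -0.67 ± 0.10 on the low side and H2AC6 at 0.55 ± 0.12 on the high side. H3-3A, a replacement histone, rose by 0.87 ± 0.15 on 1 probe set and lost its call with the spike covariate. Histone genes within a cluster are near-identical, and a probe set can report several.

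Of 26 p53 targets 6 fell and 2 rose (median -0.049). PMAIP1, the pro-death protein NOXA, which ATF4 also drives, read -0.032, -0.0018 and 0.031 with DMSO and -0.64, -0.66 and -0.58 with SAHM1 (-0.63 ± 0.064). RPS27L, a p53-induced ribosomal protein, rose by 0.37 ± 0.077 and lost its call without the _x_at and _s_at classes. In the BCL2 family 3 of 19 members fell (15.8%, against 13.2% of all genes) and none rose, and the count of 3 became 1 without DMSO 2. PMAIP1 was 1 of the 3.

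The largest share of rises among the lists was in cholesterol genes. Of 25 genes of cholesterol synthesis and uptake 8 rose and 1 fell (median 0.16), a share of rises of 32% against 5.85% of all genes. HMGCS1, which makes the substrate of the rate-limiting step, read 0.083, -0.060 and -0.026 with DMSO and 0.66, 0.58 and 0.67 with SAHM1 (0.64 ± 0.061, limma adjusted p = 3.91e-05). MSMO1, a sterol demethylase, changed by 0.56 ± 0.059, FDPS, the farnesyl diphosphate synthase, by 0.41 ± 0.060, and EBP, a sterol isomerase, by 0.33 ± 0.062. The fall was in ABCG1, which exports cholesterol (-0.68 ± 0.084). EBP lost its call with the spike covariate. Fatty acid genes did not share the rise: 4 of 21 fell and 1 rose (calls 3 without DMSO 1, 2 without DMSO 2, 3 without SAHM1 1, 3 without SAHM1 2), and ACSL1, which activates long-chain fatty acids, changed by -0.76 ± 0.086.

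Genes of protein turnover showed small mixed movements. Of 44 proteasome subunits 4 rose and 2 fell (median 0.042). Of 29 cytosolic chaperones 5 rose and 3 fell (median -0.0076; calls 2 without DMSO 1, 5 without DMSO 2, 5 without DMSO 3, 3 without SAHM1 1, 5 without SAHM1 2). DNAJB1, a heat shock partner of HSP70, rose by 0.45 ± 0.067. PSMC3 and PSMD10 of the proteasome rose by 0.38 ± 0.072 and 0.31 ± 0.061, PSMF1, a proteasome inhibitor, changed by -0.44 ± 0.072, and these 3 lost their calls with the spike covariate. Lysosome and autophagy genes counted 4 falls and 2 rises in 46 members. WIPI1, which marks forming autophagosomes, changed by -1.06 ± 0.11, and the lysosomal protease CTSC by -0.48 ± 0.061.

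Fewer list members were called in the fit with the spike covariate, at 7 of 15 ATF4 regulators, 9 of 24 transporters, 7 of 19 serine and folate enzymes, 7 of 19 enzymes of the other amino acids and 9 of 32 synthetases. The same fit called 6 of 22 NOTCH targets, 3 of 24 glycolysis genes, 3 of 28 hypoxia genes, 7 of 38 ribosome biogenesis genes and 5 of 47 replication genes. It called 4 of 25 cholesterol genes, 3 of 43 mitosis genes, 4 of 62 chromatin modifiers and 1 of 39 splicing factors. Calls in the other large lists were 1 of 28 for RNA polymerase I and III, 2 of 78 for the respiratory chain, 3 of 41 for T-lineage and leukaemia factors, 5 of 56 for translation factors and 8 of 466 for zinc finger genes. The spike fit called 5 of 26 mTORC1 genes, 1 of 30 genes of the unfolded protein response and 2 of 17 MYC network genes. It called none of the 42 interferon-stimulated, 31 antigen presentation and 41 T-cell receptor genes, against 12, 6 and 8 in the fit without the covariate.

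Leaving out the _x_at and _s_at classes also lowered some lists. NOTCH targets then had 6 calls among 16 measured genes and a median of -0.062, against 11 of 22 and -0.18 with all classes. T-lineage and leukaemia factors had 3 calls among 29 and a median of -0.0096, against 18 of 41 and -0.13. In the respiratory chain 7 rose and 5 fell among 66, with a median of 0.030. Calls went from 8 to 1 in p53 targets and from 3 to 0 in the BCL2 family. Part of this drop came from genes with no probe set left. Among these were PMAIP1 of both lists and the p53 target SESN2, whose calls were not tested in this setting. Serine and folate enzymes moved the other way, to a median of -0.34 over 15 measured members, against -0.16 over 19 with all classes.

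**Figure D4:**
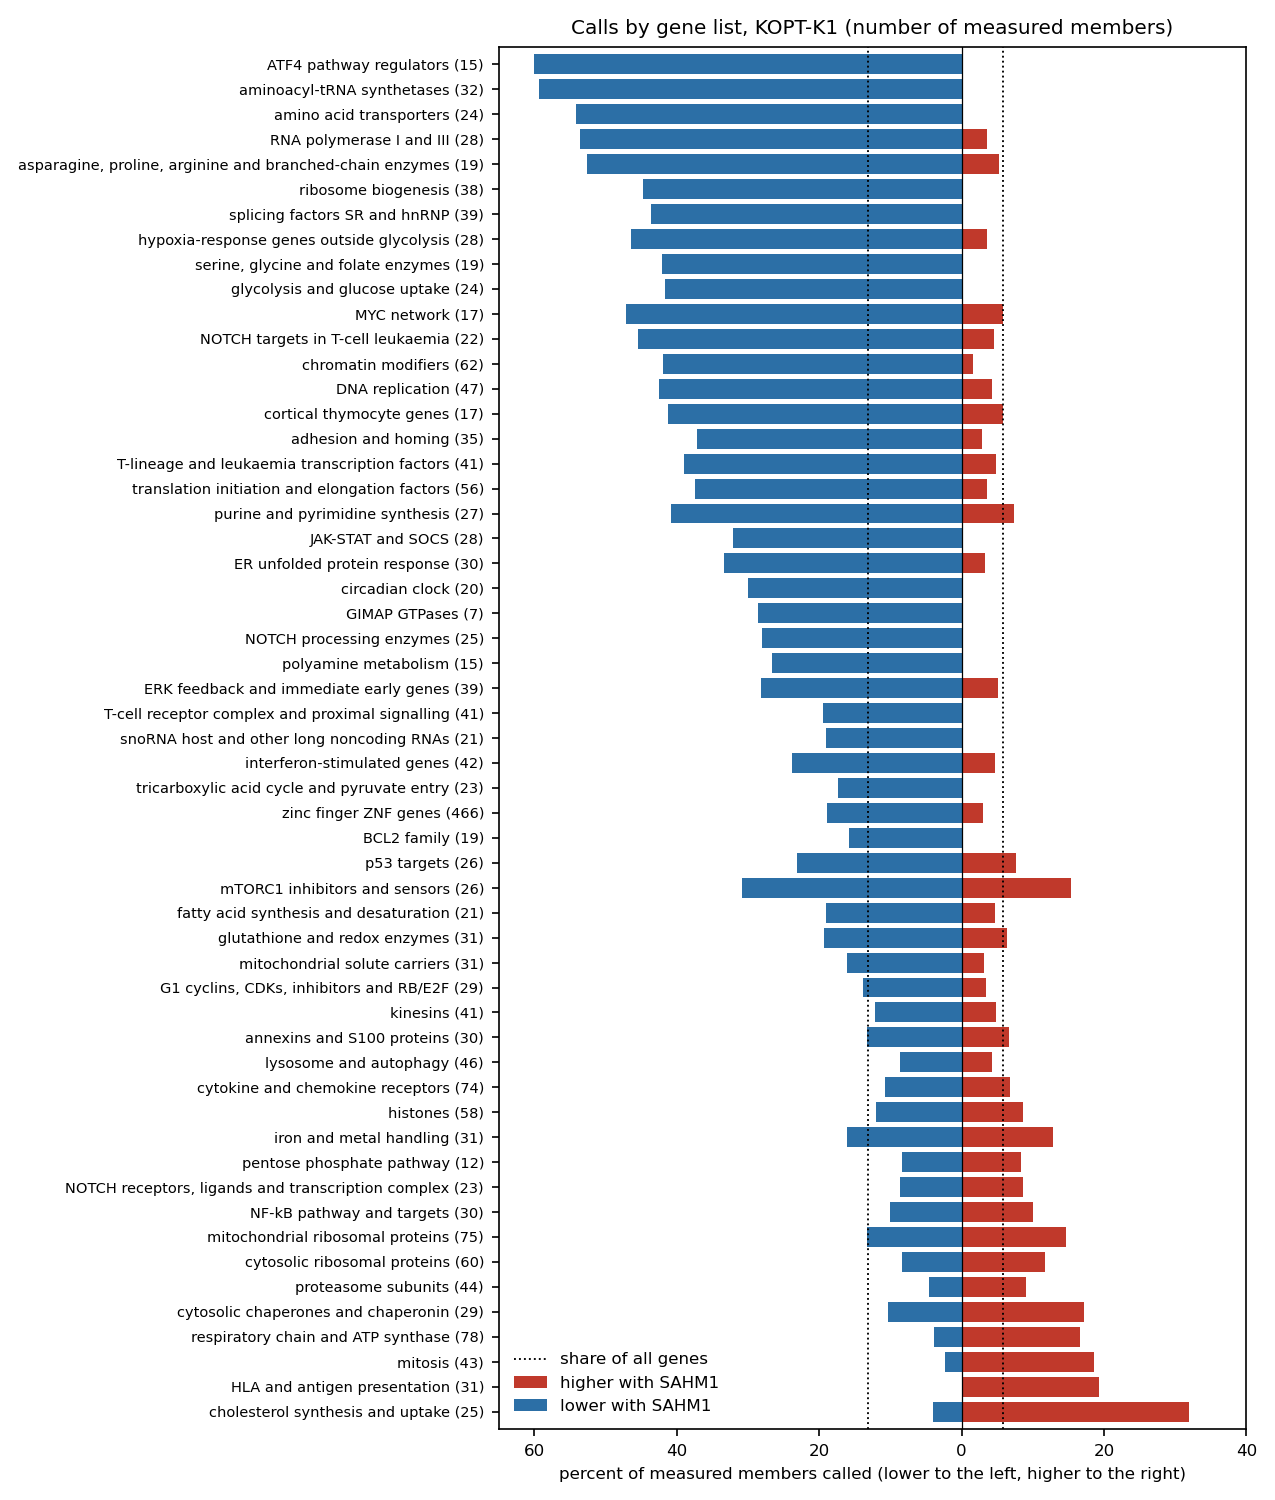
For each gene list other than the lineage markers in KOPT-K1, the horizontal axis gives the percent of measured members that fell (blue, to the left) and rose (red, to the right), with the number of measured members in brackets and dotted lines at 13.2% and 5.85% for all genes. The 5 amino acid lists have from 42.1% to 60% of members lower, and cholesterol synthesis lies at the bottom with 32% higher.

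Genes of T-cell development fell in part. Of 17 cortical thymocyte genes 7 fell and 1 rose (median -0.13). CD1A and CD1E, lipid-presenting molecules of cortical thymocytes, changed by -0.54 ± 0.057 and -0.41 ± 0.054, CD38, an ectoenzyme of immature cells, by -0.56 ± 0.065, and RAG2, a subunit of the recombinase, by -0.81 ± 0.11. Among T-lineage and leukaemia transcription factors 16 of 41 fell and 2 rose (median -0.13). BCL11A changed by -0.66 ± 0.067 with 4 of 4 probe sets called, and MYB by -0.66 ± 0.071. LYL1, a leukaemia oncogene, rose by 0.47 ± 0.081. IKZF1, which encodes Ikaros, and LEF1, a partner of beta-catenin, changed by -0.35 ± 0.057 and -0.51 ± 0.085 and lost their calls with the spike covariate.

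Few lineage markers were called. None of 9 T-lineage markers was called, the lowest being CD3G at -0.50 ± 0.18 (limma adjusted p = 0.08). The list mean lay between -0.15 and -0.063 in the SAHM1 arrays and between -0.026 and 0.021 in the DMSO arrays. In the B-cell, myeloid, erythroid and stromal lists 1 member each rose, of 7, 9, 8 and 10, and in the NK-cell list 1 of 9 fell. The list means with SAHM1 ran from 0.044 to 0.11 for B-cell, 0.069 to 0.097 for myeloid, 0.036 to 0.10 for erythroid, 0.033 to 0.070 for stromal and -0.11 to 0.0043 for NK-cell markers. With DMSO they ran from -0.025 to 0.028, -0.051 to 0.035, -0.066 to 0.070, -0.044 to 0.031 and -0.055 to 0.040. The markers called were MS4A1, S100A9, SLC4A1, DCN and GZMB, and each lost its call in at least 1 alternative. MS4A1, S100A9, SLC4A1 and DCN were not called with the spike covariate. Whether any such marker is expressed at all cannot be read from ratios. Fewer cells of a type and less RNA per cell cannot be told apart in these arrays of whole cultures.

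Called receptor signalling genes were mostly falls, as were 69.3% of all calls. The share that fell was 19.5% in the T-cell receptor list, 32.1% in JAK-STAT and 37.1% in adhesion and homing, against 13.2% of all genes. In the T-cell receptor list 8 of 41 fell and none rose (median -0.044; calls 4 without DMSO 1, 4 without SAHM1 2). In the JAK-STAT list 9 of 28 fell and none rose (median -0.18; calls 3 without DMSO 1, 4 without DMSO 2, 3 without SAHM1 2). In the adhesion and homing list 13 of 35 fell and 1 rose (median -0.11; calls 9 without DMSO 2). SOCS7, a cytokine feedback inhibitor, changed by -0.54 ± 0.062 with all 3 probe sets called. The integrin subunits ITGA1, ITGA2 and ITGB2 changed by -0.63 ± 0.069, -0.54 ± 0.091 and -0.53 ± 0.088. SOS1 and NFATC3 downstream of the receptor changed by -0.35 ± 0.064 and -0.36 ± 0.072, ITGA4 by -0.38 ± 0.058 and the thymus-homing receptor CCR9 by -0.35 ± 0.071, and these 4 were not called with the spike covariate. Cytokine and chemokine receptors counted 8 falls and 5 rises in 74 members (calls 8 without DMSO 1), near the shares of all genes.

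Of 39 immediate early and ERK feedback genes 11 fell and 2 rose (median -0.057; calls 8 without DMSO 1, 6 without DMSO 2, 8 without SAHM1 2). DUSP6, the phosphatase that marks ERK activity, changed by -0.57 ± 0.058 and KLF6, an early response factor, by -0.37 ± 0.057. JUN, a component of AP-1, went the other way, with 0.98, 0.65 and 0.92 in the SAHM1 arrays against 0.12, -0.089 and -0.051 with DMSO (0.86 ± 0.10). Only 2 of its 4 probe sets were called, with a range of 0.54 to 1.49, and JUN lost its call without the _x_at and _s_at classes. In the NF-kB list 3 of 30 rose and 3 fell (calls 3 without SAHM1 3). TNFAIP3, its feedback inhibitor A20, rose by 0.46 ± 0.075.

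Interferon-stimulated genes counted 10 falls and 2 rises in 42 members (median -0.056; calls 7 without DMSO 1), and antigen presentation counted 6 rises and no fall in 31 (median 0.12; calls 3 without DMSO 1). SAMD9, DDX60 and SAMD9L changed by -0.35, -0.44 and -0.53 and the class I genes HLA-B and HLA-C rose by 0.39 ± 0.075 and 0.32 ± 0.066. All 5 lost their calls with the spike covariate, and HLA probe sets can read more than 1 HLA gene. In the annexin and S100 list 4 of 30 fell and 2 rose (calls 3 without DMSO 2). S100A11, a calcium-binding protein, changed by -0.41 ± 0.062.

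Nuclear regulators had many small falls. Of 62 chromatin modifiers 26 fell and 1 rose (median -0.14; calls 17 without SAHM1 2), of 39 splicing factors 17 fell and none rose (median -0.19; calls 11 without DMSO 1, 11 without DMSO 2, 10 without DMSO 3, 11 without SAHM1 1, 11 without SAHM1 2), and of 466 zinc finger ZNF genes 88 fell and 14 rose (median -0.098; calls 67 without DMSO 1). SETD7, a lysine methyltransferase, changed by -0.71 ± 0.084, and SRSF6, a splicing regulator, by -0.55 ± 0.067. ZNF326 changed by -0.62 ± 0.089 with all 4 probe sets called, ZNF571 by -0.63 ± 0.090 and ZNF473 by -0.50 ± 0.065. The DNA methylation enzymes DNMT3A (-0.41 ± 0.064) and TET1 (-0.63 ± 0.11), the splicing factors SRSF10 (-0.29 ± 0.054) and LUC7L (-0.31 ± 0.062), and ZNF655 (-0.40 ± 0.061) lost their calls with the spike covariate.

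Clock genes counted 6 falls and no rise in 20, with PER2, a repressor of the clock, at -0.92 ± 0.12. NFIL3, a clock-linked repressor, changed by -0.85 ± 0.18 and lost its call with the spike covariate. Of 21 long noncoding and snoRNA host genes 4 fell and none rose, among them SNHG33 (-0.78 ± 0.080), SNHG17 (-0.55 ± 0.068) and TUG1 (-0.46 ± 0.054).

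Metal handling was mixed, with 4 rises and 5 falls in 31 members. The metallothioneins MT1X (0.42 ± 0.063), MT2A (0.39 ± 0.074) and MT1E (0.34 ± 0.064) rose, and the zinc importer SLC39A14 (-0.39 ± 0.077) and the copper exporter ATP7A (-0.65 ± 0.094) fell. MT2A, MT1E and ATP7A were not called with the spike covariate, and metallothionein genes are close copies that share probes. Mitochondrial carriers counted 5 falls and 1 rise in 31 members.

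The largest fall of all genes was in ANXA3. This annexin, which binds phospholipid and is otherwise known from myeloid cells, read -0.43, 0.18 and 0.17 in the DMSO arrays and -3.40, -3.60 and -2.99 in the SAHM1 arrays, 9.86-fold lower (-3.30 ± 0.17, limma adjusted p = 2.18e-07). S100P, a calcium-binding protein, read 0.054, 0.016 and -0.073 with DMSO and -2.07, -1.82 and -2.10 with SAHM1 (-1.996 ± 0.13). CTSG, cathepsin G, changed by -1.36 ± 0.074 and CST7, an inhibitor of lysosomal cathepsins, by -1.47 ± 0.10. These genes rest on 1 probe set each, as do 31 of the 51 genes that were lower by at least 1.

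TM6SF1, a lysosomal membrane protein, changed by -1.99 ± 0.12, and VLDLR, a lipoprotein receptor, by -1.81 ± 0.13. PCK2, the mitochondrial enzyme that feeds serine and glycerol synthesis from the cycle and is an ATF4 target, read 0.086, 0.040 and -0.14 with DMSO and -1.82, -1.79 and -1.78 with SAHM1 (-1.79 ± 0.088). DHRS2, a short-chain reductase, changed by -1.81 ± 0.12 with both probe sets called. Further falls of at least 1 were in ULBP1 (-1.32 ± 0.14), a ligand of the killer receptor NKG2D, in NIBAN1 (-1.21 ± 0.099), a stress-induced regulator of translation, in SPAG1 (-1.18 ± 0.083), in NLGN4X (-1.19 ± 0.095), a neuronal adhesion protein, in FAM107B (-1.16 ± 0.081), in ARSG (-1.15 ± 0.083), a lysosomal sulphatase, in GPR160 (-1.09 ± 0.11), an orphan receptor, in TMEM268 (-1.07 ± 0.089) and in BCHE (-1.05 ± 0.074), butyrylcholinesterase. SPNS3, a putative transporter, changed by -1.38 ± 0.14, ALKBH8, which modifies tRNA wobble bases, by -1.003 ± 0.15, and ARRDC3, an arrestin-like protein, by -1.06 ± 0.19, the last with its call lost under the spike covariate. Of the 51 genes, 31 stood in at least 1 list and 19 in the amino acid lists. Genes named for falls of at least 1 outside the lists were chosen after their values were seen.

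The largest rises were smaller in size than the largest falls. FRG1BP, a pseudogene of FRG1, read 0.28, -0.12 and -0.21 with DMSO and 1.43, 1.39 and 1.27 with SAHM1 (1.38 ± 0.13), and both of its probe sets were called. As a close copy of FRG1 its probes may also bind the parent transcript. PLSCR4, a phospholipid scramblase, changed by 1.26 ± 0.17, the noncoding LOC100505915 by 1.24 ± 0.11, SH3GL3, an endophilin, by 0.997 ± 0.12 with 2 of 3 probe sets called, and RRAS, a RAS-related GTPase, by 0.90 ± 0.11. MEFV, the pyrin inflammasome sensor, changed by 1.10 ± 0.15 and DSPP, a dentine protein, by 1.10 ± 0.15, each on 1 probe set. Others of the 20 largest rises were ACVR2B-AS1 at 0.92 ± 0.093, LOC101928626 at 0.91 ± 0.11, LINC01697 at 0.84 ± 0.089, NEK2-DT at 0.79 ± 0.089 and LINC02372 at 0.80 ± 0.13. ZNF528 (1.34 ± 0.21), LINC02504 (1.15 ± 0.17) and CTBP1-DT (0.84 ± 0.14) were among them too and lost their calls with the spike covariate. No signal level stands behind a ratio, so a rise of a dim probe set cannot be told from that of a bright one.

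HPB-ALL, treated alike, gives a measure of which KOPT-K1 changes differ between the lines. In HPB-ALL 1846 genes were called (9.34%), 980 higher (4.96%) and 866 lower (4.38%). The difference of the responses, KOPT-K1 change minus HPB-ALL change, was tested for every gene in the same limma model and was called for 3323 genes (16.8%). The lines share no arrays. Of the 51 genes that were lower by at least 1 in KOPT-K1, 49 had a called difference, 17 were higher in HPB-ALL and 4 were lower there too. The 51 were chosen for their KOPT-K1 change, which enters the difference, so a high count of called differences was built in. Array controls also differed in HPB-ALL, where the 18S control read -1.65 to 1.05 in the DMSO arrays and 1.35 to 1.89 in the SAHM1 arrays. With the 18S level as covariate the difference between the lines was called for 324 genes, with the spike covariate for 251 and after quantile normalization for 211.

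Amino acid genes were frequent among these differences. Of the 109 genes 42 had a called difference with KOPT-K1 lower and 3 with KOPT-K1 higher, and 20 fell in KOPT-K1 while they rose in HPB-ALL. Over all 19775 genes 2253 had a called difference with KOPT-K1 lower and 1070 with it higher. CHAC1 read 1.45, 1.33 and 1.27 in the HPB-ALL SAHM1 arrays, a rise of 1.36 ± 0.13, and the difference between the lines was -4.002 ± 0.18 (limma adjusted p = 6.27e-08). ASS1 rose there by 1.45 ± 0.12 and differed by -3.14 ± 0.18, SLC7A11 rose by 0.85 ± 0.086 and differed by -2.95 ± 0.12, and CEBPB rose by 0.58 ± 0.059 and differed by -2.02 ± 0.083. BCAT1 differed by 0.10 ± 0.062 with SAHM1 in HPB-ALL and was not called there, and the difference was -2.18 ± 0.088. Over the 5 lists the median change was -0.0031 in HPB-ALL against -0.29 in KOPT-K1.

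**Figure D5:**
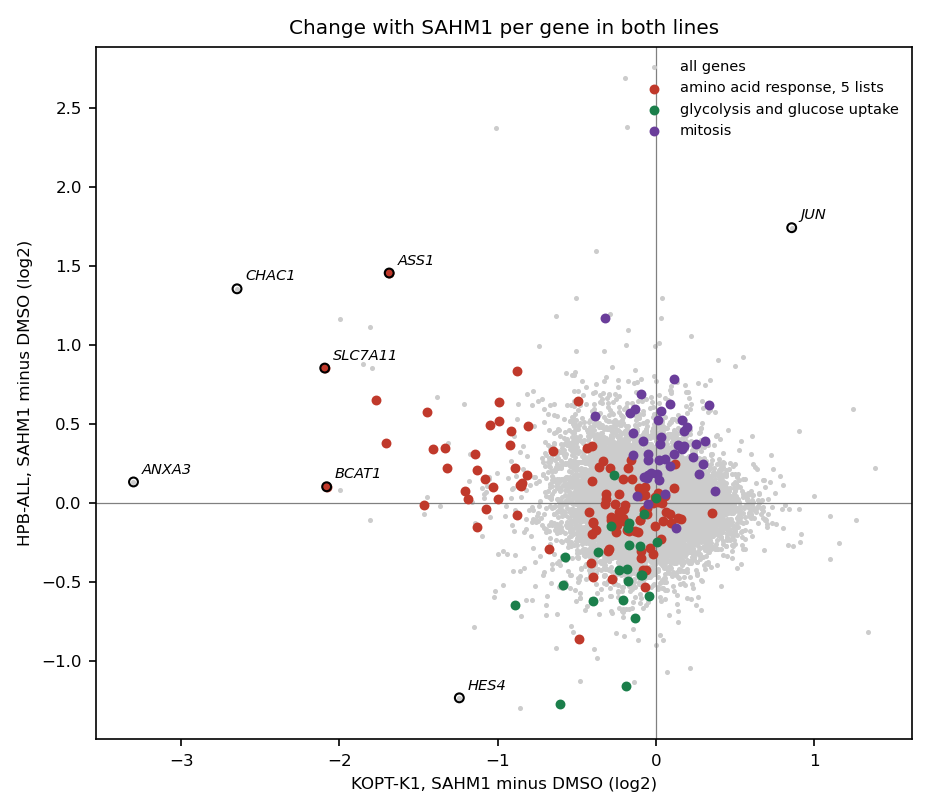
Each point is 1 gene, with its log2 change with SAHM1 in KOPT-K1 on the horizontal axis and in HPB-ALL on the vertical axis, all genes in grey and 3 groups of genes in colour. Amino acid response genes (red) spread to the left in KOPT-K1 and in part upwards in HPB-ALL, glycolysis genes (green) lie low in both, and mitosis genes (purple) lie high in HPB-ALL.

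Of the 22 NOTCH targets 5 had a called difference between the lines (22.7%, against 16.8% of all genes), 2 with KOPT-K1 lower and 3 with it higher. HES4 differed by -0.0075 ± 0.13 (limma adjusted p = 0.978), HES1 by -0.10 ± 0.074 (limma adjusted p = 0.38) and MYC by -0.045 ± 0.099 (limma adjusted p = 0.798). None of the 3 was called, which does not show that the lines act alike. DTX1 fell less in KOPT-K1 than in HPB-ALL, by 0.44 ± 0.13, a difference not called with the 18S or the spike covariate, and IL7R fell in KOPT-K1 with a difference of -1.14 ± 0.18.

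Mitosis, glycolysis and cholesterol genes separated the lines in other ways. Of 43 mitosis genes 28 rose in HPB-ALL against 8 in KOPT-K1, and 17 had a called difference with KOPT-K1 lower and 1 with it higher. Of 24 glycolysis genes 18 fell in HPB-ALL against 10 in KOPT-K1, and 7 had a called difference with KOPT-K1 higher and 1 with it lower. Of 25 cholesterol genes 2 rose and 1 fell in HPB-ALL, and 9 had a called difference with KOPT-K1 higher and 2 with it lower. HMGCS1 was among these 9, at 0.42 ± 0.087 above HPB-ALL. Chromatin modifiers had 25 called differences with KOPT-K1 lower and 1 with it higher, of 62. The share with a called difference was 41.9% for mitosis, 33.3% for glycolysis, 44% for cholesterol and 41.9% for chromatin modifiers, against 16.8% of all genes. These list counts were not repeated with the 18S covariate, under which the difference was called for 324 genes in all.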

How the data were processed

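Total RNA was hybridized to human U133 Plus 2.0 arrays, 1 per culture, 3 cultures per treatment and line. The deposited values are linear ratios, each probe set being divided by its DMSO mean in that line, as the files show: in every probe set the 3 DMSO arrays average 1 within a tolerance of 1e-06. The submitters' processing notes name RMA; its version is not given in the sources used here. KOPT-K1 ratios ran from 0.0827 to 4.02. The number of arrays limits the precision.

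Ratios were turned into log2 with no pseudocount. Of 54675 probe sets 41097 carried 1 gene symbol in the platform annotation, 1801 several, and 11777 were not listed. Averaging probe sets of the same symbol gave 19775 genes, 9252 from 1 probe set and the rest from up to 20. No filter on low values was possible without signal levels.

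limma 3.58.1 in R 4.3.3 (lmFit, eBayes, two-sided) was fitted to 12 arrays in 4 groups with 8 residual degrees of freedom. Steps were tested on simulated data. Numbers in the titles did not pair the arrays: the deviations of same-numbered arrays correlated at -0.055 to 0.068. The 62 gene lists, with 2355 measured entries, and the genes to name were chosen with earlier results of these data known, and 1 list is not reported here. Genes named were 11 NOTCH genes, the 20 largest called rises and 20 largest called falls without overlap, up to 4 per list and direction by smallest p, the 10 smallest p, and falls of at least 1. Alternatives were the KOPT-K1 arrays alone, a replicate block, centring, quantile normalization, probe-set choices, spike and 18S covariates, robust eBayes, a 1.2-fold minimum, and each array left out.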

Additional observations from a re-analysis of the deposited data

Results flagged for a closer look

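The difference between the lines, KOPT-K1 change minus HPB-ALL change, was called by limma for 43 of the fixed NOTCH genes, the largest rises and falls and the genes of smallest p. Apart from the fixed NOTCH genes, these were chosen on KOPT-K1 values that enter the difference. A high count was therefore built in, and over all genes the share was 16.8%. Values are log2 and negative where KOPT-K1 was lower. Amino acid response genes gave -4.002 for CHAC1, -3.14 for ASS1, -2.95 for SLC7A11, -2.73 for SESN2, -2.65 for PCK2, -2.43 for PSAT1, -2.18 for BCAT1, -2.09 for SLC3A2, -2.02 for CEBPB, -1.75 for SLC7A5, -1.54 for GARS1, -1.48 for EIF4EBP1, -1.45 for PYCR1 and -1.28 for IARS1. Other genes that fell in KOPT-K1 gave -3.43 for ANXA3, -3.16 for TM6SF1, -2.92 for VLDLR, -2.08 for S100P, -2.05 for SPNS3, -1.70 for DHRS2, -1.40 for CST7 and -1.34 for CTSG.

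Among the rises the difference was 2.16 for ZNF528, 1.45 for MEFV, 1.41 for LINC02504, 1.37 for PLSCR4, 1.18 for DSPP, 1.16 for LOC101928626, 1.16 for FRG1BP, 1.14 for H3-3A, 1.11 for ACVR2B-AS1 and 1.10 for CTBP1-DT. It was 0.96 for LINC02372, 0.95 for SH3GL3, 0.95 for RRAS, 0.88 for LINC01697, 0.84 for NEK2-DT, 0.83 for an immunoglobulin kappa orphon gene, 0.69 for POTEM and 0.65 for LOC100505915. JUN rose in both lines and less in KOPT-K1, by -0.89. Of the NOTCH genes, HEY1 gave 0.64 and DTX1 0.44. Among 266 genes named from the lists, 171 had a called difference and 29 were called in opposite directions in the lines. They too were mostly picked by small p in KOPT-K1, so a share above the 16.8% of all genes was built in. Of the 43 differences, 27 were still called with the 18S level as covariate, 24 with the spike covariate and 23 after quantile normalization. HEY1 lost its call under all 3, and DTX1 under both covariates. JUN, PLSCR4, LOC100505915, LINC02504, MEFV, RRAS, H3-3A, LINC01697, CTBP1-DT, LINC02372, POTEM, NEK2-DT and the immunoglobulin gene were also lost under all 3. FRG1BP, ZNF528, DSPP and LOC101928626 lost theirs with the spike covariate and after quantile normalization. SH3GL3 lost its call with the 18S covariate and after quantile normalization. Of these rises only ACVR2B-AS1 kept its call throughout. Among the falls only DHRS2 lost a call, after quantile normalization.

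Signals outside the gene-level comparison were also present. The hybridization spikes read 0.83 higher in the SAHM1 arrays than in the DMSO arrays of KOPT-K1. Of 13522 probe sets with several or no listed symbols 1595 were called (11.8%), 974 higher and 621 lower, so rises outnumbered falls there. In the same fit 6354 of 41091 probe sets with 1 symbol, controls left out, were called (15.5%), 1622 higher and 4732 lower.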

How the results depend on the processing

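The call count in KOPT-K1, 3761, was 2528 to 3360 when 1 KOPT-K1 array was left out. It was 2525 with the KOPT-K1 arrays alone, 2498 without the _x_at and _s_at classes, 709 with the spike covariate, 261 for a 1.2-fold minimum and 136 after quantile normalization, and probe sets tested singly gave 6668. Quantile normalization of ratios raised the median within-group SD of the KOPT-K1 DMSO arrays from 0.086 to 0.134 and lowered that of the SAHM1 arrays from 0.102 to 0.066. The line difference, 3323 calls, gave 2545 to 3155 with 1 array left out, 465 for the 1.2-fold minimum, 324 with the 18S covariate, 251 with the spike covariate and 211 after quantile normalization. Falls were 69.3% of calls, 64.0% with each array centred on its median, 81.6% after quantile normalization and 87.0% for the 1.2-fold minimum. All 3761 calls kept their direction in every setting that used the same probe sets, apart from 2 of them with the probe-set median.

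The replicate block called 3071 genes in KOPT-K1 and 2616 line differences; the title numbers do not pair the cultures, and 42 of 329 named calls were lost under it. NRARP, not called, ran from -0.16 to 0.043 with 1 array left out, and NOTCH1, not called, from -0.058 to 0.18, with -0.30 under the spike covariate. Without the _x_at and _s_at classes ASNS read 0.13, KIF9 0.12 and FYN 0.22, against falls with all probe sets. KIF9 also lost its call with the spike covariate. Small list medians, at most 0.071 in size, changed sign in up to 7 of 56 lists under a setting. The cause of these changes was not tested. Signal over background is unknown for ratios, so dim probe sets could not be set aside.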
